A study of Lupinus albus with 12 samples.

Results

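Basic helix-loop-helix (bHLH) transcription factors bind DNA as dimers. The basic stretch of each partner contacts the E-box, and the helix-loop-helix holds the partners together, while small members without a working basic stretch can titrate others away from DNA. In roots of the model plant Arabidopsis, members of the family are known for their parts in root hair formation, vascular development, iron uptake, jasmonate signalling and the size of the growth zone, where the bHLH factor UPBEAT1 represses peroxidase genes. The bHLH genes of white lupin (*Lupinus albus*) were taken by name, as all genes whose protein name contained "transcription factor bHLH" in the deposited table, which gave 173 of 23427 genes. The name read "Putative transcription factor bHLH family" for 166 of them and "Transcription factor bHLH family" for 7.

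White lupin is a legume that forms cluster roots, bottlebrush-like clusters of short lateral roots. Wild-type plants of the cultivar Amiga were grown in complete nutrient solution, and their roots were kept without added sucrose (control) or placed in 10 mM sucrose for 10, 15 or 20 min, with 3 libraries in each of the 4 groups. The root sections harvested included the tip, and their cDNA was sequenced on 3 Nanopore flow cells, and replicates 1, 2 and 3 of every group shared flow cells 1, 2 and 3, respectively. The labels speak of 3 plants in a replicate and the study's methods of 1, and the plants of a replicate and its flow cell cannot be told apart.

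Each gene had a whole-number value per library on a scale that is not known, so that the reads behind a value are unknown too. These values summed to between 184071 (control replicate 2) and 407780 (control replicate 3) per library. Flow cell 3 had totals of 339599 to 407780, and flow cells 1 and 2 had 184071 to 356992. As a check for tissue other than root, 26 chlorophyll a-b binding protein genes, which belong to leaves, took 0.0327% to 0.185% of a library's total. Their share was 0.0481% to 0.185% on flow cell 3 and 0.0327% to 0.063% on the others, with 7 to 13 of the 26 genes listed at 0 in a library. No protein was named for the Casparian strip, the endodermal marker sought, so root identity could not be checked by it. In such bulk tissue, fewer cells of a type and less RNA per cell cannot be told apart.

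Among the 173 bHLH genes, the GO annotation gave protein dimerization to 155, a place in the nucleus to 156 and DNA-binding transcription factor activity to 79. Every chromosome of the 25 carried at least 2 of them, and chromosome 3 carried the most with 11. Their gene spans, introns included, ran from 534 to 10773 bases with a median of 2837. As a family they were lowly listed. The median over members of the mean value in the 12 libraries was 1.33, against 1.67 over all genes. A mean of at least 10 was reached by 15 members (8.67%), compared with 17.4% of all genes, and 71 members had a mean under 1. Together the members held 0.148% to 0.239% of a library's total, with 87 to 125 members above 0, and the 10 highest members accounted for 35.0% of all member values. That share was 0.186% to 0.239% on flow cell 3 and 0.148% to 0.177% on flow cells 1 and 2.

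Differences were tested with a linear model (limma) on log2(value + 1), restricted to genes listed at 1 or more in 3 libraries or more. These included 139 members (80.3%, against 81.7% of all genes). The other 34 never exceeded a value of 3 and were above 0 in at most 2 libraries. A gene at or near 0 in the control could meet this filter through sucrose libraries alone. The log2 FC given here is a difference in mean log2(value + 1). A gene was called up- or down-regulated when its log2 FC reached 1.5 in either direction and its unadjusted two-sided *p* was 0.05 or less. The study used the same limits, but on results of another test (DESeq2).

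Sucrose was followed by higher values of a few bHLH genes. At 10 min, 6 members passed as up-regulated (4.32% of the members tested), whereas 0.575% of all tested genes did. At 15 min there were 4 (2.88%, all genes 0.449%) and at 20 min 5 (3.60%, all genes 0.695%). None passed as down-regulated at 10, 15 or 20 min, where the shares of all genes were 0.0732%, 0.115% and 0.131%. With shares this low, no such call among the members is near the background. The 3 comparisons use the same control libraries. In total 8 members were called at any time point (5.76%, all genes 1.21%), 3 of them at all 3 (2.16%, all genes 0.152%): Lalb_Chr02g0158971, Lalb_Chr07g0177941 and Lalb_Chr17g0347051. The study's own list of genes up-regulated at all 3 times holds Lalb_Chr02g0158971 and Lalb_Chr17g0347051 but not Lalb_Chr07g0177941. After Benjamini-Hochberg adjustment over all 19138 genes, 0 members passed 0.05 with limma, beside 0.00523% of all genes in each comparison. The lowest adjusted *p* of a member was 0.878, 1 and 0.822 for the 3 times in turn. At an unadjusted *p* of at most 0.05 without a fold limit, 9 members were higher and 2 lower at 10 min, 8 higher and 1 lower at 15 min, and 9 higher and 0 lower at 20 min. The corresponding shares of all genes were 2.03% and 0.35%, 1.5% and 0.455%, and 3.43% and 0.329%.

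**Figure D1:**
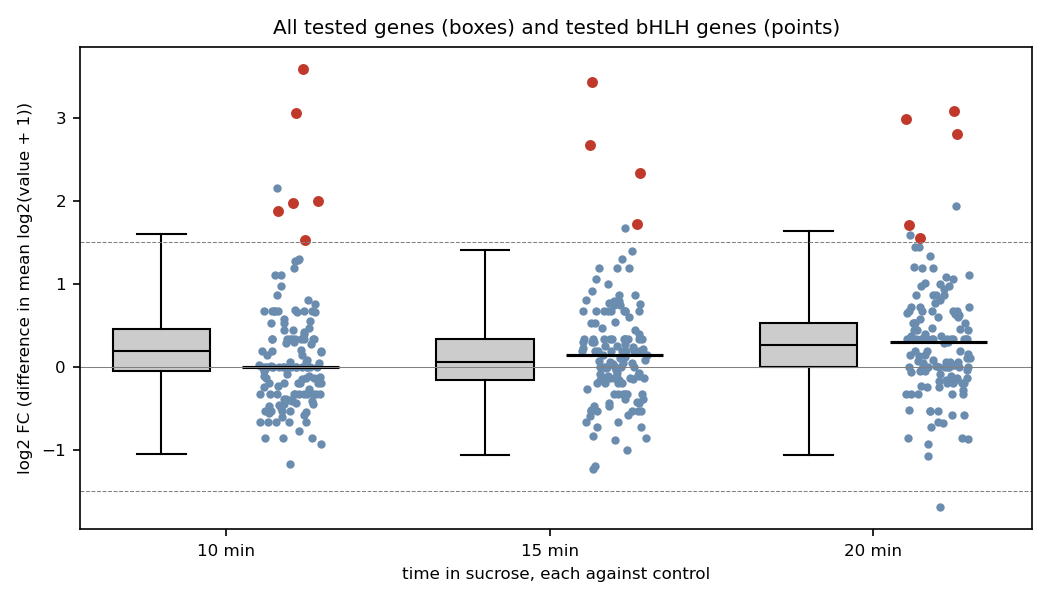
Each group's mean log2(value + 1) minus that of the control (vertical axis), with the minutes in sucrose on the horizontal axis. Boxes show the quartiles of all 19138 tested genes, with whiskers that leave out the most extreme genes. Points show the 139 tested bHLH genes with a bar at their median. Red points passed both thresholds, 6, 4 and 5 genes in turn, all above the upper dashed line at 1.5, while most of the other members lay within the whiskers of all genes.

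Most members moved little. The median log2 FC over the 139 members was 0.00, 0.14 and 0.30 after 10, 15 and 20 min, beside 0.19, 0.06 and 0.26 over all genes. At 10 min 62 members lay above 0 and 60 below, at 15 min 78 and 54, and at 20 min 89 and 39. The values were not scaled between libraries. With median-of-ratios scaling the medians of all genes came to 0.01, 0.01 and 0.04, and those of the members to -0.14, 0.06 and 0.13, so that the sign of the members' median at 10 min depends on the scaling.

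The bHLH gene with the highest mean value, Lalb_Chr07g0177941 (34.8), lies on chromosome 7 from 541239 to 542437 and carries the GO term regulation of growth. It was listed at 1, 0 and 30 in the control, at 34, 66 and 45 after 10 min, at 40, 32 and 57 after 15 min, and at 34, 66 and 12 after 20 min. Libraries of flow cell 3 set the overlap of the groups: its control stood at 30 and its 20 min library at 12, below that control. The control mean was 10.3 ± 17.0 (SD, n = 3). The log2 FC was 3.59, 3.44 and 2.98 for the 3 times (SE 1.03, *p* = 0.00454, 0.00596 and 0.0135, limma), and an exact permutation test of the 9 sucrose against the 3 control libraries gave *p* = 0.00909. The smallest *p* that test allows is 0.00455. Within flow cells, the mean difference between the sucrose libraries and the control was 4.21 on flow cell 1, 5.73 on flow cell 2 and 0.07 on flow cell 3 (log2). When replicates were reassigned only within their flow cell, the exact permutation *p* was 0.0313, with 0.0156 as the smallest possible. Without control replicate 3, the log2 FC over all sucrose libraries went from 3.33 to 4.82, and the adjusted *p* was 0.0362. At 20 min the unadjusted *p* went above 0.05 when control replicate 1 (log2 FC 2.49), control replicate 2 (1.99) or 20 min replicate 2 (2.43) was left out, and the call was lost.

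The bHLH gene with the smallest *p*, Lalb_Chr02g0158971, which the study names as its UPBEAT1 homologue, was listed at 3, 0 and 2 in the control, with 10 to 39 in the 9 sucrose libraries. No sucrose library overlapped the control, and the difference was seen on each flow cell, with 1.90, 4.78 and 2.13 on the log2 scale on flow cells 1, 2 and 3. With such a separation, no other assignment of the libraries can give a larger difference in that direction. The permutation values of this gene therefore restate the separation and are no further evidence. Over all sucrose libraries its log2 FC was 2.94 (SE 0.51, *p* = 9.04e-05, adjusted *p* = 0.325, limma), and the exact permutation *p* was at the smallest possible value both over all libraries (0.00455) and within flow cells (0.0156). Between 10 and 20 min the log2 FC was 0.02 (SE 0.62, adjusted *p* = 1, limma).

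Lalb_Chr17g0347051 was the other member with all 9 sucrose libraries above all 3 control libraries, a pattern of 1.44% of the members and 0.188% of all genes. The reverse, all sucrose libraries below the control, was found in 0 members and 0.0261% of all genes. It was listed at 0, 0 and 1 in the control, at 4, 3 and 5 after 10 min, at 3, 3 and 15 after 15 min, and at 5, 5 and 18 after 20 min. The 2 highest values came from flow cell 3, and the gene also differed between flow cells (adjusted *p* = 0.0427, limma). Its sucrose difference was nevertheless similar on flow cells 1, 2 and 3, at 2.30, 2.19 and 2.61 (log2). With the flow cell as a term, which pairs libraries by replicate number, its log2 FC over all sucrose libraries of 2.37 had an SE of 0.31 in place of 0.51, and an adjusted *p* = 0.0747 (limma). When 5 instead of 1 was added to the values, its log2 FC was 0.75, 1.03 and 1.31 and no longer reached 1.5.

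**Figure D2:**
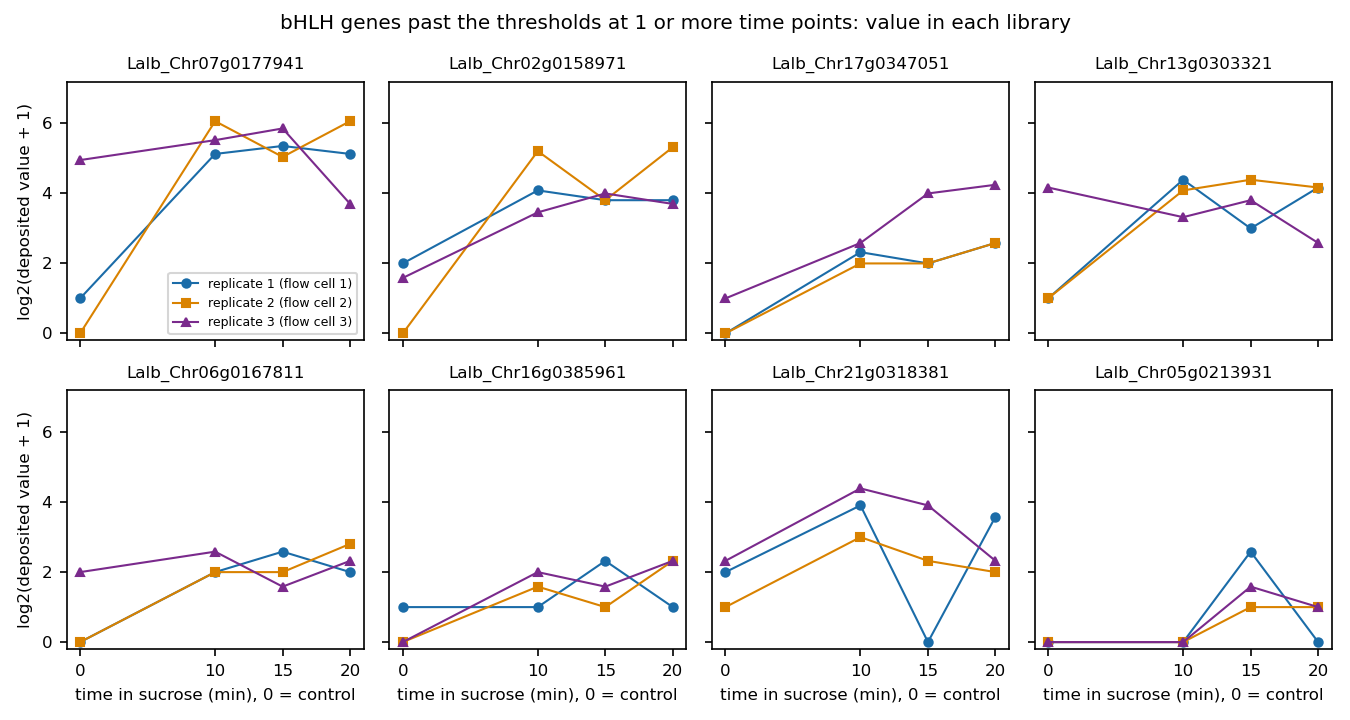
The 8 bHLH genes called at any time point, as log2(value + 1) in each library (vertical axis) against minutes in sucrose (horizontal axis, 0 is the control). Each line joins the 4 libraries of a flow cell, with no averaging. Lalb_Chr02g0158971 and Lalb_Chr17g0347051 rise on all 3 lines, whereas in Lalb_Chr07g0177941, Lalb_Chr13g0303321 and Lalb_Chr06g0167811 the control of flow cell 3 already stands near the sucrose libraries.

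A further gene with the GO term regulation of growth was called at 10 min. Lalb_Chr13g0303321, on chromosome 13 from 15392979 to 15393618, was listed at 1, 1 and 17 in the control, at 20, 16 and 9 after 10 min, at 7, 20 and 13 after 15 min, and at 17, 17 and 5 after 20 min. As with Lalb_Chr07g0177941, control replicate 3 lay far above the other controls and 20 min replicate 3 was the lowest sucrose library. The log2 FC was 1.88, 1.68 and 1.58 (SE 0.80, *p* = 0.0371, 0.058 and 0.071, limma, with an exact permutation *p* of 0.0364 over all libraries and 0.0625 within flow cells). It was 2.85 and 3.22 on flow cells 1 and 2 but -0.93 on flow cell 3. Its 10 min call disappeared on leaving out control replicate 1 or 2 (log2 FC 1.35 each), 10 min replicate 1 (1.65) or 10 min replicate 2 (1.80), the latter pair because *p* exceeded 0.05.

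Regulation of growth was the term of 5 bHLH genes, of which 4 were tested, and their median log2 FC was 1.57, 1.27 and 0.80 for the 3 times. The calls came from the pair above, both at 10 min and Lalb_Chr07g0177941 alone later. The shares of all genes called higher were 0.575%, 0.449% and 0.695% at 10, 15 and 20 min. Lalb_Chr06g0175411 was listed at 12, 1 and 2 in the control and between 0 and 8 with sucrose, and Lalb_Chr10g0098151 at 0, 0 and 2 in the control and between 0 and 6 with sucrose. Neither was called, and in both the groups overlapped. The untested Lalb_Chr17g0340531 had a single value of 1, in control replicate 3.

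The remaining calls concerned genes with no GO process more specific than regulation of transcription. Lalb_Chr06g0167811, on chromosome 6 from 4317394 to 4319588, was listed at 0, 0 and 3 in the control, 3, 3 and 5 after 10 min, 5, 3 and 2 after 15 min, and 3, 6 and 4 after 20 min. Only 15 min replicate 3 was below control replicate 3. Its log2 FC was 1.53, 1.39 and 1.71 (SE 0.54, *p* = 0.0157, 0.0251 and 0.00848, limma, exact permutation *p* = 0.0273), and it was called at 10 and 20 min. Median-of-ratios scaling ended its 10 min call (1.47), as did leaving out control replicate 1 or 2 (both 1.19) or 10 min replicate 3 (1.33). At 20 min the call ended on leaving out control replicate 1 or 2 (both 1.38) or 20 min replicate 2 (1.49).

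Lalb_Chr16g0385961, on chromosome 16 from 6053416 to 6056829, was listed at 1, 0 and 0 in the control, 1, 2 and 3 after 10 min, 4, 1 and 2 after 15 min, and 1, 4 and 4 after 20 min. All 9 sucrose libraries were at or above the highest control value. It was called at 20 min with a log2 FC of 1.55 (SE 0.51, *p* = 0.0109, limma, exact permutation *p* over all sucrose libraries = 0.0182). Scaling to equal totals lowered this to 1.43 and median-of-ratios scaling to 1.40. It fell to 1.38 without control replicate 2 or 3 and to 1.33 without 20 min replicate 2 or 3, all under the threshold.

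Lalb_Chr21g0318381, on chromosome 21 from 14130905 to 14131438, stood out at 10 min, where its values of 14, 7 and 20 were all above the 3, 1 and 4 of the control. At 15 min it was listed at 0, 4 and 14 and at 20 min at 11, 3 and 4, which overlapped the control. The log2 FC at 10 min was 1.99 (SE 0.84, *p* = 0.0356, limma, exact permutation *p* over all sucrose libraries = 0.259), against 0.30 and 0.86 later. The log2 FC between 20 and 10 min, -1.13, did not pass (SE 0.84, adjusted *p* = 1, limma). The unadjusted *p* at 10 min went above 0.05 on leaving out the control of flow cell 1 (2.11) or 2 (1.61), or the 10 min library of flow cell 1 (1.92) or 3 (1.68), and also when 0.5 instead of 1 was added to the values (2.19).

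Lalb_Chr05g0213931, on chromosome 5 from 1657883 to 1660060, was listed at 0 in every control and 10 min library, at 5, 1 and 2 after 15 min, and at 0, 1 and 1 after 20 min. It was called only at 15 min (log2 FC 1.72, SE 0.42, *p* = 0.00145, limma, exact permutation *p* over all sucrose libraries = 0.327), with a difference that depends on the added 1 because the control is at 0. The gene met the filter on low values only through its 15 and 20 min libraries, so this *p* is no separate support for an increase. Without 15 min replicate 1 the difference was 1.29, under the threshold.

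Below the fold threshold, the members with an unadjusted *p* of at most 0.05 and a decrease were few and lowly listed. Lalb_Chr22g0357561 was listed at 1, 1 and 2 in the control, 1, 0 and 0 after 10 min, 0 in all 15 min libraries, and 1, 1 and 0 after 20 min, with a log2 FC of -0.86 at 10 min and -1.19 at 15 min (SE 0.39, adjusted *p* = 1 for both, limma). Lalb_Chr01g0012221 was listed at 1, 1 and 2 in the control and at 0, 1 and 0 after 10 min (log2 FC -0.86, adjusted *p* = 1, limma). Their values in the control and with sucrose overlapped at 1 at the times compared, except for Lalb_Chr22g0357561 at 15 min, and they were the only members on that side.

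With the 9 sucrose libraries as a single group, 5 members were called higher (3.60%, all genes 0.387%) and 0 lower (all genes 0.0836%), and 0 had an adjusted *p* of 0.05 or less (all genes 0.00523%). Without the fold limit, 11 members were higher and 1 lower, beside 2.9% and 0.371% of all genes. Between 20 and 10 min no member passed in either direction, beside 0.23% of all genes higher and 0.141% lower, and the median log2 FC of the members was 0.23, against 0.02 over all genes. Without the fold limit 3 members were higher at 20 min and 1 lower, beside 1.42% and 0.538% of all genes, and 0 members or genes passed after adjustment. The lower member, Lalb_Chr18g0046101, was listed at 15, 19 and 8 after 10 min and at 8, 8 and 3 after 20 min, next to 9, 11 and 7 in the control (log2 FC -1.05, adjusted *p* = 1, limma). An F test over the 4 groups had an unadjusted *p* of at most 0.05 for 6 members (4.32%, all genes 2.01%), each of which is among the 8 called genes, and an adjusted *p* of at most 0.01 for 0 members and 0 of all genes.

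Among the bHLH genes with high listed values, several had their highest value in the control of flow cell 3. None of the 8 highest members was among the 17, described below, that differed between flow cells at an adjusted *p* of at most 0.05 (limma). Values are not corrected for transcript length, so their order is one of listed values only. Lalb_Chr25g0286951, on chromosome 25 from 14256234 to 14257990, was listed at 25, 9 and 123 in the control, 26, 13 and 67 after 10 min, 9, 31 and 37 after 15 min, and 28, 26 and 9 after 20 min. The adjacent gene Lalb_Chr25g0286961, 5531 bases away, was listed at 5, 0 and 92 in the control, 4, 0 and 34 after 10 min, 0, 5 and 14 after 15 min, and 2, 3 and 4 after 20 min. In both genes the value on flow cell 3 was lower at each later time, whereas no such order was seen on flow cell 2. On flow cell 1 Lalb_Chr25g0286961 was also lower with sucrose than in the control, at values of 5 or less, and Lalb_Chr25g0286951 was not ordered. Their log2 FC over all sucrose libraries was -0.42 (SE 0.73, limma) and -0.84 (SE 1.29), with an exact permutation *p* of 0.627 and 0.582.

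A decrease on flow cell 3 was also seen in Lalb_Chr20g0110191, on chromosome 20 from 1761865 to 1763565. Its values on flow cell 3 were 100, 71, 4 and 0 at 0, 10, 15 and 20 min, and it was listed at 0 to 4 in all libraries of the other flow cells. Its log2 FC at 20 min of -1.69, the lowest of the members, had an SE of 1.80 and did not pass (adjusted *p* = 0.979, limma). With 1 library for each flow cell and time point, a time course on a single flow cell has no replicate.

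Lalb_Chr22g0350411 was listed at 11, 0 and 50 in the control and at 2 to 29 with sucrose. Its difference from the control was -0.46, 3.35 and -0.85 on flow cells 1, 2 and 3 (log2), so the flow cells disagreed in sign.

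**Figure D3:**
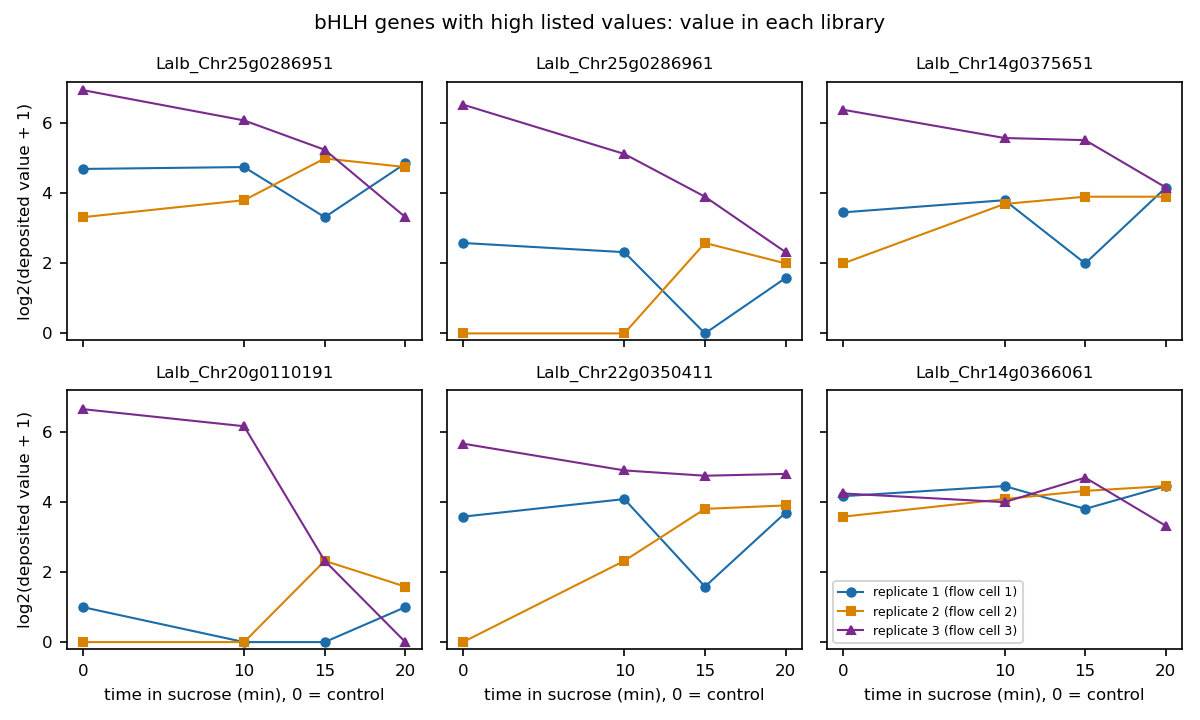
The 6 bHLH genes among the 8 highest by mean value that were not called, as log2(value + 1) in each library (vertical axis) against minutes in sucrose (horizontal axis). Lines join the libraries of a flow cell. In 5 of the 6 genes the flow cell 3 line starts far above the others, at values of 50 to 123, and it falls most in Lalb_Chr20g0110191, whereas Lalb_Chr14g0366061 stays between 9 and 25 in all 12 libraries.

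The iron-related bHLH genes, 8 members with the GO term for intracellular iron ion homeostasis, were tested in full and none was called. Of all genes, 0.575%, 0.449% and 0.695% were called higher at 10, 15 and 20 min, and 0.0732%, 0.115% and 0.131% lower. No call among 8 genes is therefore near the background. In Arabidopsis, bHLH factors sense iron status and control iron uptake genes. The median log2 FC of the 8 was 0.43, 0.04 and 0.11 for the 3 times, and single genes ranged from 0.02 to 0.67, from -0.39 to 0.74 and from -0.19 to 0.81, respectively. Lalb_Chr14g0366061 was the steadiest of the high members, with 17, 11 and 18 in the control, 21, 16 and 15 after 10 min, 13, 19 and 25 after 15 min, and 21, 21 and 9 after 20 min. The log2 FC over all sucrose libraries was 0.18 (SE 0.33, limma, exact permutation *p* = 0.523). Lalb_Chr14g0375651 was listed at 10, 3 and 83 in the control, 13, 12 and 47 after 10 min, 3, 14 and 45 after 15 min, and 17, 14 and 17 after 20 min, again highest in the control of flow cell 3. A further pair of members with a term for guard cell differentiation never exceeded 1 and was not tested. The single member with the term endosperm development, Lalb_Chr12g0196451, had a log2 FC of 1.30 at 10 min (adjusted *p* = 1, limma), under the fold threshold.

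Several bHLH genes were neighbours on a chromosome, in 6 pairs with at most 1 gene between, 5 of them directly adjacent. The called genes Lalb_Chr13g0303321, Lalb_Chr16g0385961 and Lalb_Chr05g0213931 each belonged to such a pair. Their neighbours were not called and were lowly listed: Lalb_Chr13g0303301 at 1 to 4, Lalb_Chr16g0385951 at 0 to 2, and Lalb_Chr05g0213921 at 0 to 4. The difference between neighbours was not tested, and how alike their sequences are, and so whether reads could be shared between them, was not analysed here. No member overlapped another annotated gene.

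At an adjusted *p*, more bHLH genes differed between flow cells than between time points. In a model with the time point, 17 members (12.2%) differed between flow cells at an adjusted *p* of at most 0.05 (limma), and 9.59% of all genes did, so the share was close to the background. Flow cell 3 was higher in 14 of them and lower in 3, with differences from -2.32 to 3.39 (log2). Flow cell 3 was above both other flow cells at all 4 time points in 22 members (15.8%, all genes 11%) and below both in 5 (3.60%, all genes 3.42%). Lalb_Chr12g0202381 was listed at 0 on flow cells 1 and 2 throughout and at 3, 3, 5 and 9 on flow cell 3 in the control and after 10, 15 and 20 min (adjusted *p* = 0.000962). Lalb_Chr24g0394931 was likewise at 0 on flow cells 1 and 2 and at 9, 4, 3 and 2 on flow cell 3 (adjusted *p* = 0.00222). Both genes met the filter on low values through flow cell 3 alone, so their *p* is no separate support for a difference. The same holds for any other of the 17 members at 0 throughout flow cells 1 and 2. Lalb_Chr09g0328111 had 9 to 12 on flow cell 3 and 1 to 4 elsewhere (adjusted *p* = 0.00182).

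Lalb_Chr23g0269881 had 11 to 21 on flow cell 3 and 0 to 2 elsewhere (adjusted *p* = 0.00204), and Lalb_Chr11g0064771 5 to 12 and 0 to 2 (adjusted *p* = 0.00788). None of these 5 genes was called for sucrose, with differences over all sucrose libraries between -0.45 and 0.51 (log2). In the opposite direction, Lalb_Chr22g0353131 was listed at 0, 0, 0 and 3 on flow cell 3 and at 3 to 11 elsewhere (adjusted *p* = 0.0173). The median total was 386284 on flow cell 3 and 300736 on the others, and the median share of leaf-type chlorophyll a-b genes was 0.0779% and 0.0344%, with overlapping ranges as given above. Their part in these differences was not tested.

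**Figure D4:**
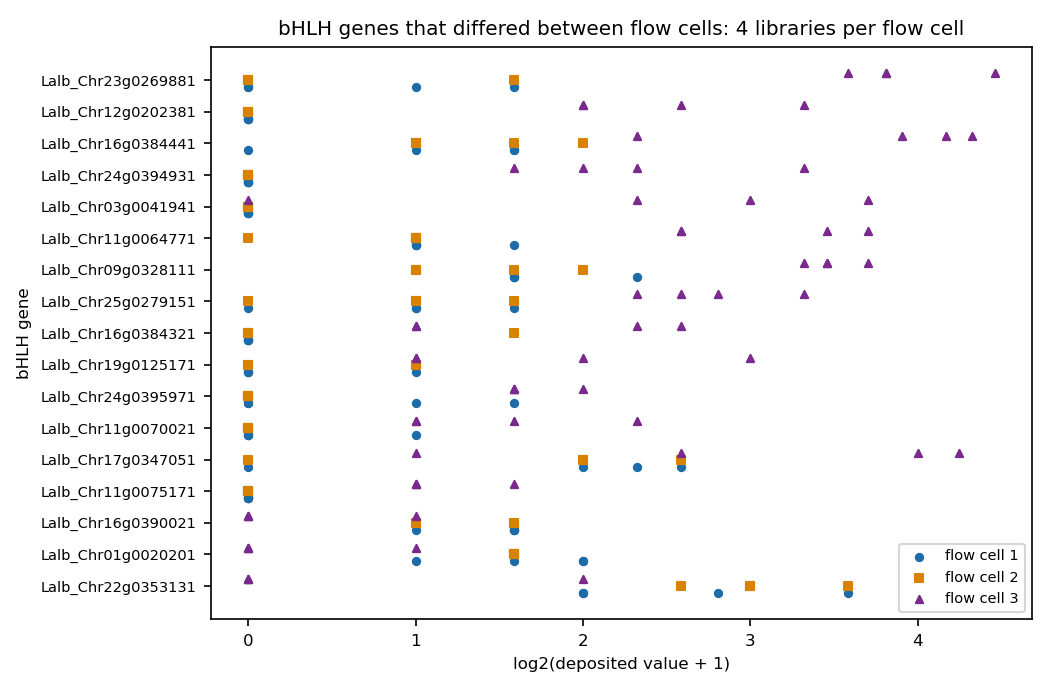
The 17 bHLH genes that differed between flow cells, each as log2(value + 1) (horizontal axis) in the 4 libraries of each flow cell, ordered by the difference of flow cell 3 from the others. By their mean, triangles of flow cell 3 lie to the right in the upper 14 genes and to the left in the lowest 3. Single values overlap or touch those of the other flow cells in several genes. An example is Lalb_Chr17g0347051, with 1 to 18 on flow cell 3 and 0 to 5 on the others. Equal values lie on top of each other.

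Within flow cells, all 3 sucrose libraries were above the control in 16, 33 and 21 members on flow cells 1, 2 and 3 (11.5%, 23.7% and 15.1%), beside 13.5%, 38.1% and 15.4% of all genes. All 3 were below it in 15, 15 and 24 members (10.8%, 10.8% and 17.3%), beside 8.9%, 7.17% and 21.6%. The balance of increases and decreases in the family thus differed between flow cells, as it did for all genes. These values were not scaled, and control replicates 2 and 3 had the lowest and highest totals of all libraries (184071 and 407780). Sucrose libraries had totals of 298356 to 356992 on flow cell 2 and 339599 to 391998 on flow cell 3. The part of the totals in this balance was not tested.

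Groups that include genes known to act with bHLH factors were counted in the same way. Of 23 other genes with a bHLH or MYC name, 18 were tested. At 10, 15 and 20 min, 1, 0 and 0 of them were called higher (all genes 0.575%, 0.449% and 0.695%). The single call was Lalb_Chr06g0174991 at 10 min, listed at 3, 0 and 2 in the control, 5, 6 and 8 after 10 min, 4, 8 and 5 after 15 min, and 9, 5 and 1 after 20 min, with a log2 FC of 1.66 (*p* = 0.0221, limma, exact permutation *p* over all sucrose libraries = 0.0318). This call was lost without control replicate 2 (1.06), and without 10 min replicate 3, where *p* exceeded 0.05.

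Class III peroxidases, secreted enzymes that shift the balance of reactive oxygen species in the cell wall, include targets of UPBEAT1 in Arabidopsis. Which of the lupin genes correspond to those targets was not analysed. Of 57 genes 48 were tested, and 1, 3 and 1 were up-regulated at 10, 15 and 20 min (all genes 0.575%, 0.449% and 0.695%). None was down-regulated (all genes 0.0732%, 0.115% and 0.131%). Their median log2 FC was 0.35, 0.23 and 0.48, beside 0.19, 0.06 and 0.26 over all genes. Lalb_Chr02g0143031 was listed at 1, 0 and 0 in the control, 3, 6 and 8 after 10 min, 1, 2 and 7 after 15 min, and 3, 3 and 3 after 20 min, and was called at each time with 2.33, 1.53 and 1.67 (*p* = 0.000921, 0.014 and 0.00863, limma, exact permutation *p* = 0.00909). The more highly listed Lalb_Chr03g0035481 had 45, 27 and 19 in the control and 221, 67 and 81 after 15 min, when it was called (1.86, limma, exact permutation *p* over all sucrose libraries = 0.05), and its 20 min values of 98, 97 and 17 overlapped the control. The third gene called at 15 min was Lalb_Chr10g0103691, with 0, 2 and 0 in the control and 4, 3 and 3 after 15 min (1.58). Each of the 15 min calls depended on single libraries: Lalb_Chr02g0143031 fell to 0.96 without 15 min replicate 3 and to 1.36 without control replicate 2 or 3, Lalb_Chr03g0035481 to 1.34 without 15 min replicate 1 and 1.58 (*p* above 0.05) without control replicate 3, and Lalb_Chr10g0103691 to 1.31 without control replicate 1 or 3 and 1.47 without 15 min replicate 1.

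Iron uptake, transport and storage genes, a group that includes targets of bHLH factors in Arabidopsis, numbered 46 with 35 tested. Up-regulated were 2, 1 and 1 at 10, 15 and 20 min (all genes 0.575%, 0.449% and 0.695%), and down-regulated 0, 0 and 2 (all genes 0.0732%, 0.115% and 0.131%). The gene called higher at each time was a ferritin, an iron storage protein, Lalb_Chr12g0207151. It was listed at 3, 4 and 1 in the control, 23, 22 and 5 after 10 min, 14, 12 and 7 after 15 min, and 8, 20 and 5 after 20 min, so that all sucrose libraries were above the control (log2 FC 2.12, 1.76 and 1.61, *p* = 0.00574, 0.0165 and 0.0258, limma, exact permutation *p* = 0.00455). Here too the permutation value only restates that separation. A nicotianamine synthase, which makes a metal chelator, Lalb_Chr15g0077671, was called lower at 20 min, with 1, 5 and 3 in the control and 1, 0 and 0 after 20 min (-1.53, limma, exact permutation *p* over all sucrose libraries = 0.105). A further ferritin, Lalb_Chr07g0191161, was called at 10 min only (1.54), and a cytochrome b561 and ferric reductase gene, Lalb_Chr12g0196031, was lower at 20 min, with 4, 6 and 0 in the control and 0 in all 20 min libraries (-1.71). Of the calls of Lalb_Chr12g0207151, that at 10 min held with each library left out, whereas those at 15 and 20 min were lost without control replicate 3 (1.37 and 1.22), 15 min replicate 1 (1.58 at 15 min, *p* above 0.05) or 20 min replicate 2 (at 20 min), and both scalings brought the latter to 1.31. Both lower calls were lost without control replicate 2 (-1.17 and -1.16), and that of Lalb_Chr07g0191161 without 10 min replicate 1 or 2 (1.40) and under median-of-ratios scaling (1.33) or scaling to equal totals (1.30). Lalb_Chr15g0077671 also lost its call without control replicate 3 (-1.46) or 20 min replicate 2 or 3 (-1.36), and Lalb_Chr12g0196031 without control replicate 1 (-1.40) or any 20 min library (-1.71, *p* above 0.05). The median of the iron genes was 0.14, -0.19 and 0.09.

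Of 27 TIFY or jasmonate ZIM genes, repressors that bind MYC-type bHLH factors, 25 were tested. The 1 call was Lalb_Chr09g0324131, higher at 15 min (all genes 0.449%). It was listed at 0, 2 and 2 in the control and at 12, 5 and 8 after 15 min (log2 FC 2.10, *p* = 0.0044, limma, exact permutation *p* over all sucrose libraries = 0.0545), with 3, 2 and 3 after 10 min and 7, 6 and 1 after 20 min. The median of the 25 genes was 0.33, 0.44 and 0.45. With 5 added to the values, 1 call of these 4 lists reached 1.5, that of Lalb_Chr03g0035481. No gene of the lists had an adjusted *p* of at most 0.05 with limma, and the lowest was 0.979.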

How the data were processed

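Per the study's methods, the authors trimmed Nanopore cDNA reads (Pychopper), aligned them to the CNRS_Lalb_1.0 genome (Minimap2), and quantified genes with StringTie and Salmon. The values the authors deposited are named CPM but are whole numbers with unequal totals, and were used as a score on an unknown scale, without scaling between libraries. The authors' table of DESeq2 fold changes and p-values was not used.

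Log2(value + 1) was modelled with limma 3.58.1 (trend in the variance) in R 4.3.3, in a single fit of 12 libraries in 4 groups. Genes listed at 1 or more in 3 libraries or more (19138) were kept, with Benjamini-Hochberg adjustment over all of them. Exact permutation tests (two-sided) of single genes used numpy 2.4.6 and Python 3.11.15. The fit was tested on simulated data. All p-values measure only the spread between these libraries.

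Genes called in any comparison, genes whose sucrose libraries all lay above or all below the control, the 8 highest means, the 5 smallest flow cell p-values and 3 genes per other list were named, together with some members chosen after their values were seen, such as those under the fold threshold or in a GO group. Means per length and protein similarity, also planned, were not analysed here, because no transcript or protein sequences were used. Peroxidases were taken by EC number only, and proteins named only as ferritin-like were left out. Members and lists were chosen with earlier results of these data known. Positions and gene order come from the CNRS_Lalb_1.0 annotation, in which all 173 members were found.

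Replicate numbers mark the flow cell and pair libraries. With each gene centred within its group, libraries of a flow cell correlated with a median of 0.284, 0.259 and 0.532 on flow cells 1, 2 and 3, and libraries of different flow cells and groups with -0.335. Alternatives were an added 0.5 or 5, other filters, 2 scalings, the flow cell as a term, and leaving out each library.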

Additional observations from a re-analysis of the deposited data

How the results depend on the processing

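No called gene changed direction under the alternatives run, whereas medians near 0 changed sign. Shares of all genes were computed only for the fit described above, not for the alternatives. The counts below therefore cannot show whether the members or all genes moved. With 0.5 added before the logarithm, the 10 min call of Lalb_Chr21g0318381 was lost, 9 bHLH genes were called higher and 1 lower at 15 min, and 2 higher at 20 against 10 min. With 5 added, 2 were called higher at 10, 15 and 20 min and over all sucrose libraries, Lalb_Chr02g0158971 and Lalb_Chr07g0177941, and the median at 20 against 10 min was 0.0877. With genes of a mean of at least 5 alone, 3 were called higher at 20 min, the median at 20 against 10 min was -0.00617, the F test gave 3 and the flow cell test 3. With the flow cell as a term (the replicate block), 1 member was higher at 20 against 10 min (Lalb_Chr19g0134911), and the counts higher were 7, 4 and 6 at 10, 15 and 20 min and 6 over all sucrose libraries. The block added Lalb_Chr03g0036161, with log2 FC 2.15 at 10 min and 1.94 at 20 min (limma, adjusted *p* = 0.914 and 0.756), where the unadjusted *p* came under 0.05. The block changed no other call of the named genes.

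Leaving out each library in turn gave 3 to 10 members higher and 0 to 2 lower at 10 min, 2 to 10 higher and 0 to 1 lower at 20 min, 3 to 6 higher and 0 to 1 lower over all sucrose libraries, with 0 to 1 at an adjusted *p* of at most 0.05, and 0 to 3 higher and 0 to 1 lower at 20 against 10 min. The F test gave 4 to 10 and the flow cell test 7 to 18. The extremes at 10 and 20 min came from control replicate 3, without which 10 members were higher at each, and control replicate 2, without which 3 and 2 were. The members' median at 10 min lay between -0.14 and 0.22 with each library left out, and that at 15 min between -0.10 (without 15 min replicate 3) and 0.30. The flow cell count was lowest without 15 min replicate 3. Every call of Lalb_Chr02g0158971 and Lalb_Chr17g0347051 held with each library left out. The cause of these shifts was not tested. Only 32 of the 173 members had a mean of at least 5, and below that a single unit is a large step on the log2 scale.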
